A study of Mus musculus with 6 samples.

Results

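The genes described here are those that the array names Zfp followed by a number, the mouse name for zinc finger proteins without a better-known name. A gene was chosen by its detection, when a probe for it was marked well above background by the scanner software on at least 3 of the 6 arrays, and its brightest probe (highest mean log2 signal) stood for it. Of 240 such names on the array, 204 were detected in this way, among 15544 gene names detected in all. The probe positions, given in the files on build mm7, placed 50 of the 204 on chromosome 7 and 154 elsewhere, of which 3 had no assigned chromosome. The detection marks that chose the genes come from the same arrays as the levels below, so detection itself is given only as a description.

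The arrays measured total RNA of 4T1.2 cells, a mammary tumour line of the BALB/c mouse strain. The cells carried the pMSCV retroviral vector with Irf7 (the IRF7 group, 3 arrays) or the same vector without an insert (the base-vector group, 3 arrays). Irf7 encodes an interferon regulatory factor, which switches on the genes of type I interferons. Both groups had been selected with puromycin, cloned from single cells and pooled from several clones, so each is 1 pooled population. The series' design text describes 3 independent experiments, and the p-values therefore measure the spread between cultures of these populations.

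Most Zfp genes encode proteins with tandem C2H2 zinc fingers, short loops held by a zinc ion that each read a few bases of DNA and are joined by a conserved linker. Many also carry a KRAB domain, which binds the co-repressor Trim28 and through it brings histone methylation and silencing to transposable elements and other targets. KRAB zinc finger genes lie in clusters that grew by duplication, and mouse chromosome 7 carries several of them. The name does not guarantee the family: Zfp36 is a CCCH-type RNA-binding protein, and 31 of the 204 names have been replaced in RefSeq's gene table, 11 of them by names outside the Zfp, Zbtb, Zscan and Zkscan families, such as Arfgap2 and Rnf114.

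The stretches just upstream of start sites are printed for genes of chromosome 7, because 9 letters of the motif bound by Zfp143, a transcription factor of promoters, were found there in a larger share of promoters than elsewhere (the shares are given with the promoter counts). Each line holds the 120 bases before the RefSeq start site, read 5′ to 3′ on the gene's strand of build GRCm38.p6, with a match to ACTACANTT or its reverse complement in capitals. The first 5 genes had lower signal in IRF7 cells and carry a match, Zfp30 had the largest fall and carries none, and Zfp36 and Zfp296 are those whose signal was higher. The printed genes are examples and do not reflect the shares. Among chromosome 7 Zfp genes with a listed RefSeq promoter, 15 with a match in it fell, and 26 fell without one.
Zfp383: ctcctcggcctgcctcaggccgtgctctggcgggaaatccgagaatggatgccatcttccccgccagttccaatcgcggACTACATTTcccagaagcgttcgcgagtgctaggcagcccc
Zfp260: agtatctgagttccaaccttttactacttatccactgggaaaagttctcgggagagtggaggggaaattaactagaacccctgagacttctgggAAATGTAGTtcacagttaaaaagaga
Zfp74: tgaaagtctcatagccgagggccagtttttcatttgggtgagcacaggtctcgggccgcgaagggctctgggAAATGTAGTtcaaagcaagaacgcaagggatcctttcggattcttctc
Zfp93: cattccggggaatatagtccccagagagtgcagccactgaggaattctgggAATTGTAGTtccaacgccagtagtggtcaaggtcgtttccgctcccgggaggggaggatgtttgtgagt
Zfp60: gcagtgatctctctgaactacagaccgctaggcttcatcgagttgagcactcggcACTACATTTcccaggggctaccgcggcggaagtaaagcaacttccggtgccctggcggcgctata
Zfp30: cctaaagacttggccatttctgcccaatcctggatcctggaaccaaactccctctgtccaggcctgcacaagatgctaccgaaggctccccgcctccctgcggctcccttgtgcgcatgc
Zfp36: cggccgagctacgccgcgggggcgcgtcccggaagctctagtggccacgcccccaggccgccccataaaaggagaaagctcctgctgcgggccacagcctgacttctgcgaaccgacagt
Zfp296: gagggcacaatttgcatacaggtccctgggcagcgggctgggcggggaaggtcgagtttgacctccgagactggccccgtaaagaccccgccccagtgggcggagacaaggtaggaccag
The windows lie at chr7:29908397-29908516 (plus strand) for Zfp383, chr7:30094956-30095075 (plus) for Zfp260, chr7:29954066-29954185 (minus) for Zfp74, chr7:24270298-24270417 (plus) for Zfp93 and chr7:27731289-27731408 (plus) for Zfp60. Those without a match lie at chr7:29783848-29783967 (plus) for Zfp30, chr7:28379229-28379348 (minus) for Zfp36 and chr7:19577167-19577286 (plus) for Zfp296. The match starts 41 bases before the start site in Zfp383, 26 in Zfp260, 48 in Zfp74, 69 in Zfp93 and 65 in Zfp60.

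Levels are given as the probe's signal in percent of the same array's 75th percentile, and changes as log2 of IRF7 over base vector with the standard error (SE) of limma's fit. On that scale Irf7 had 347, 356 and 344 percent in the IRF7 arrays, against 19.1, 17.02 and 18.0 percent in the base-vector arrays. It was 19.4-fold higher (log2 change 4.28, SE 0.049, adjusted p = 3.25e-07), as the labels say. The share of spots well above background was 56.8% to 59.7% in IRF7 arrays and 54.3% to 56.8% in base-vector arrays. Of 7 epithelial markers on the array 5 (Krt8, Krt18, Krt7, Cdh1 and Cldn3) were above background on all 6 arrays, and Krt19 and Cldn4 on none. Of markers of other cells, 2 of 7 for endothelium and fibroblasts (Cdh5 and Pdgfra) and 0 of 1 for fat were above background on all 6 arrays, with Pecam1, Kdr, Col1a1, Thy1 and Adipoq on none. Among leukocyte markers, Cd3e and Cd68 were above background on all 6 arrays and Itgam on none. Per the file headers, all 3 IRF7 arrays and base-vector array 1 shared slide 1, and base-vector arrays 2 and 3 were on slide 2.

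Detection was rarely marginal among the 204 genes. All 50 genes of chromosome 7 and 150 of the other 154 were above background on all 6 arrays; the exceptions were Zfp179, Zfp458, Zfp295 and Zfp697. Just inside the detection rule stood Zfp179 (now Rnf112), above background on 2 IRF7 arrays and 1 base-vector array, at 2.78, 3.88 and 3.69 percent in IRF7 arrays and 3.74, 3.02 and 2.99 percent in base-vector arrays. Zfp458, above background on 5 arrays, had 3.24, 3.15 and 3.38 percent in IRF7 arrays and 2.98, 3.75 and 3.01 percent in base-vector arrays. Just outside it stood Zfp182, above background on 0 IRF7 arrays and 2 base-vector arrays, at 0.503, 0.419 and 0.404 percent in IRF7 arrays and 0.531, 6.26 and 5.51 percent in base-vector arrays. Its 2 high values were the 2 arrays of slide 2. Zfp551, on chromosome 7, had 0.526, 1.84 and 0.566 percent in IRF7 arrays and 3.58, 3.21 and 2.26 percent in base-vector arrays. Of the 36 names left out, 27 were above background on no array, 9 on 1 or 2, and 9 of the 36 lie on chromosome 7.

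Zfp genes of chromosome 7 were mostly lower in IRF7 cells. Of the 50, 44 fell (88.0%), 2 rose and 4 did not pass the adjusted threshold of 0.05, with a median log2 change of -0.64, a level 0.640 times that of base-vector cells. Across all 15544 genes tested 60.8% passed, 29.0% lower and 31.8% higher, with a median of 0.03; without scaling between arrays 1710 were lower and 6481 higher, with a median of 0.23. Chromosome 7 as a whole stood apart from that background, with 66.6% of its 1148 genes lower and 7.23% higher. Its 1098 genes outside the Zfp names had 65.7% lower and a median of -0.37, so a fall in a Zfp gene there is to be read against a chromosome on which most genes fell. Its Zfp genes had the lower median, and no test of that difference was made because the genes were chosen with results of these arrays known. Arrays of the groups did not overlap for 48 of the 50, against 67.7% of all genes. Of these, 45 were lower in IRF7 cells (32.2% of all genes) and 3 higher (35.6% of all genes). Among the 1098 other genes of chromosome 7, the arrays did not overlap for 840, of which 738 were lower and 102 higher.

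The shift had nearly the same size on each IRF7 array. Measured against the base-vector mean of each gene, the median of the 50 genes was -0.64, -0.64 and -0.65 on the IRF7 arrays, against 0.00, -0.02 and 0.03 on the base-vector arrays. For the 154 Zfp genes elsewhere it was -0.10, -0.10 and -0.13 on the IRF7 arrays, against 0.00, -0.01 and 0.01 on the base-vector arrays. The median of chromosome 7 minus that of the rest was -0.53 ± 0.013 on IRF7 arrays and 0.004 ± 0.016 on base-vector arrays (SD, n = 3 each), where the second value lies near 0 by construction. Within slide 1 the median change was -0.63 for the chromosome 7 genes and -0.11 for the rest. That comparison, and the fit with slide as a fixed block, which gives the same changes, rest on the 1 base-vector array of slide 1. If that array is assumed to vary like the others, 41 of the 50 were lower within slide 1 and 40 with the block.

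**Figure D1:**
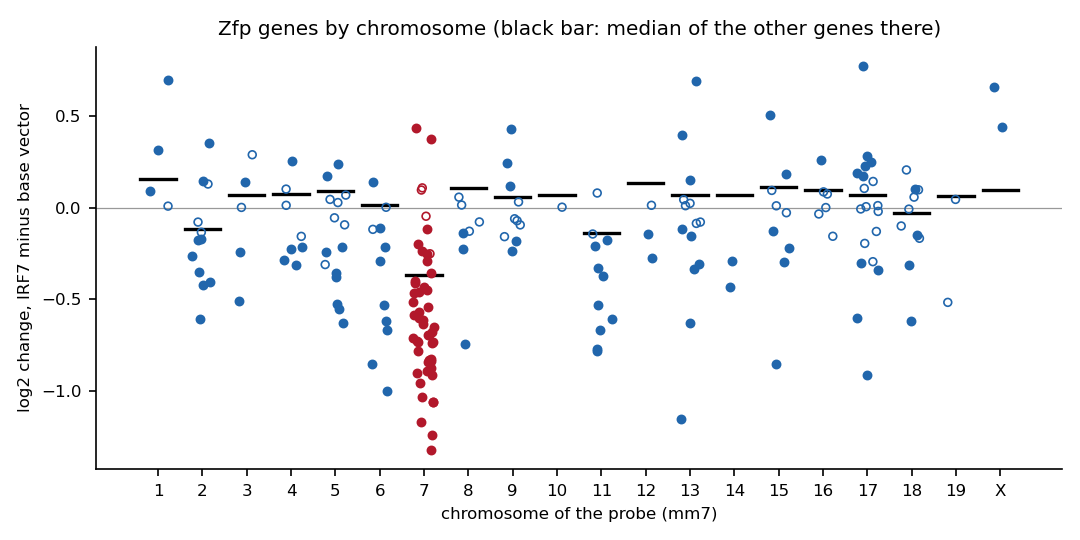
Each point is 1 of the 201 Zfp genes with an assigned chromosome, placed by the chromosome of its probe (horizontal) and its log2 change, IRF7 minus base vector (vertical). Filled points passed the adjusted threshold, red marks chromosome 7, and a black bar is the median of all other genes of that chromosome. On chromosome 7 the points run from -1.32 to 0.43 and the bar lies at -0.37; without scaling between arrays the points elsewhere shift up to a median of 0.09.

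Along chromosome 7 the Zfp genes lie mainly in the first 30 Mb and near 120 to 130 Mb of mm7. All 9 between 0 and 10 Mb fell, with a median of -0.68. The 54 other genes of that stretch had a median of -0.36, and 34 of them fell. Between 10 and 20 Mb 6 of 7 fell and 1 rose, with a median of -0.65. The 88 other genes there had a median of -0.36, and 57 of them fell. The stretch from 20 to 30 Mb held 23 of the 50, of which 20 fell and 1 rose, with a median of -0.73; 118 of its 160 other genes fell, with a median of -0.46. All 5 between 120 and 130 Mb fell, with a median of -0.69. The 127 other genes there had a median of -0.37, and 95 of them fell. The few Zfp genes outside these stretches had values nearer 0 than the Zfp medians above. Zfp715 had a log2 change of -0.46, Zfp710 and Zfp592 had -0.41 and -0.25, Zfp511 had -0.36, and Zfp473 and Zfp143 did not pass.

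**Figure D2:**
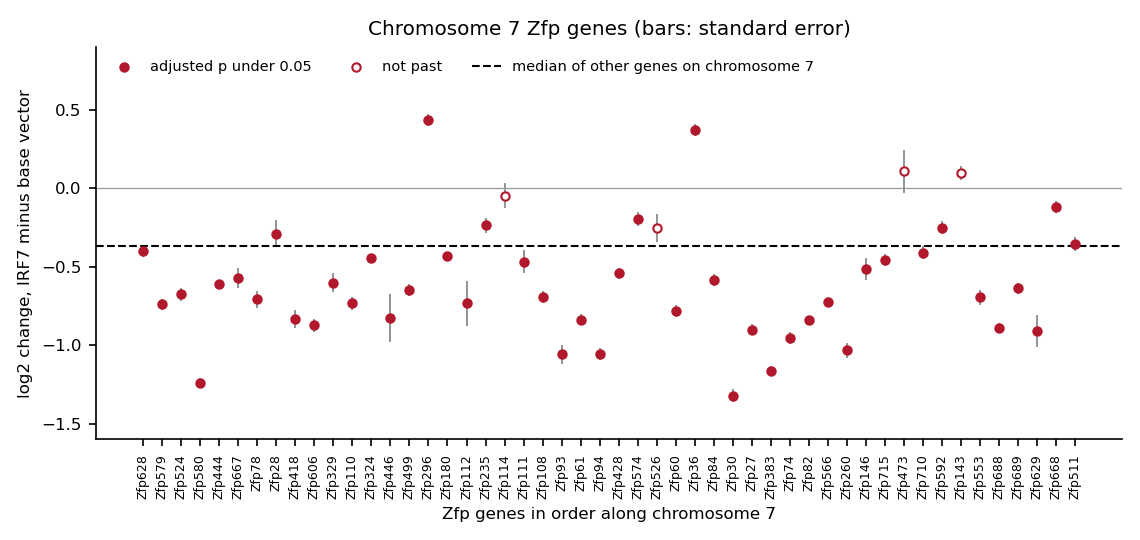
The 50 Zfp genes of chromosome 7 stand in their order along the chromosome, with the log2 change, IRF7 minus base vector, on the vertical axis and bars for 1 standard error. The dashed line marks the median of the other genes of chromosome 7 at -0.37; filled points passed the adjusted threshold, and Zfp296 and Zfp36 are the 2 filled points above 0.

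Zfp30 fell most. This KRAB zinc finger gene has been linked in mice to neutrophil recruitment in the lung, and its probe lies at chr7:26736658-26736717 of mm7. It had 20.3, 21.5 and 20.7 percent in IRF7 arrays, against 52.8, 49.5 and 53.8 percent in base-vector arrays, a level 2.50 times lower (log2 change -1.32, SE 0.044, adjusted p = 7.97e-06). The groups were well apart, and a second Zfp30 probe fell by 1.53. Zfp580, a C2H2 gene near the start of the chromosome (chr7:4630560-4630619), had 97.6, 101 and 101 percent in IRF7 arrays, against 235, 233 and 241 percent in base-vector arrays. It was 2.36 times lower (log2 change -1.24, SE 0.030, adjusted p = 3.11e-06), and its highest IRF7 array stood below every base-vector array.

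Zfp383 and Zfp260 both lie in the group of genes near 27 Mb and both carry the motif printed above. Zfp383 had 46.4, 43.9 and 45.0 percent in IRF7 arrays, against 103, 101 and 99.5 percent in base-vector arrays (log2 change -1.17, SE 0.033). Zfp260, known from the heart as a partner of Gata4, was dim, with 6.54, 7.31 and 6.87 percent in IRF7 arrays, against 13.996, 13.9 and 14.4 percent in base-vector arrays (log2 change -1.03, SE 0.048). In both genes the arrays of the 2 groups did not overlap. With normexp background correction, which pulls dim probes together, the change of Zfp260 was -0.71, and a second probe with the deposited signal had -1.08.

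Zfp93 and Zfp94 are further C2H2 genes of the stretch from 20 to 30 Mb. Zfp93 had 53.1, 50.6 and 56.9 percent in IRF7 arrays, against 106, 111 and 117 percent in base-vector arrays (log2 change -1.06, SE 0.059). Zfp94 had 10.1, 9.64 and 9.93 percent in IRF7 arrays, against 21.0, 19.8 and 21.0 percent in base-vector arrays (log2 change -1.06, SE 0.037). In neither gene did the groups overlap. Zfp74 had 17.1, 17.1 and 17.7 percent in IRF7 arrays, against 32.9, 32.8 and 35.0 percent in base-vector arrays (log2 change -0.96, SE 0.038). Of its 2 other probes, 1 gave -0.95 and the other -0.20 with adjusted p = 0.484. Zfp629, from the stretch near 124 Mb, had 16.3, 16.7 and 14.6 percent in IRF7 arrays, against 31.7, 32.4 and 25.7 percent in base-vector arrays. Its change of -0.91 had the widest standard error of these 8 genes (0.105), since 1 base-vector array was lower than the other 2.

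In all, 6 of the 50 fell at least 2-fold, against 2.56% of all genes tested, and none rose that far, against 3.33%. Among the 1098 other genes of chromosome 7, 85 fell and 22 rose that far. Zfp60, whose upstream window is printed above, had 78.0, 77.2 and 74.2 percent in IRF7 arrays, against 135, 133 and 127 percent in base-vector arrays (log2 change -0.78). Its 2 other probes fell further, by 1.23 and 1.19. Zfp110 encodes a protein that binds the neurotrophin receptor p75 and takes part in its signalling. It had 54.9, 55.3 and 54.2 percent in IRF7 arrays, against 87.8, 89.9 and 96.1 percent in base-vector arrays (log2 change -0.73, SE 0.041).

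Only Zfp296 and Zfp36 rose among the 50. Zfp296 encodes a protein that binds Klf4 and has been used with reprogramming factors. It had 148, 149 and 155 percent in IRF7 arrays, against 113, 108 and 114 percent in base-vector arrays (log2 change 0.43, SE 0.036, adjusted p = 0.000185), and the groups did not overlap. A second Zfp296 probe had 0.30 and did not pass (adjusted p = 0.114). Zfp36 encodes tristetraprolin, which binds AU-rich elements in messenger RNAs such as that of tumour necrosis factor and speeds their decay. It had 67.5, 67.1 and 71.4 percent in IRF7 arrays, against 53.5, 51.6 and 54.0 percent in base-vector arrays (log2 change 0.37, SE 0.038, adjusted p = 0.000439). Its second probe gave 0.37 as well (adjusted p = 0.00232).

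The 4 genes that did not pass were Zfp143, Zfp526, Zfp114 and Zfp473. Zfp143, the factor whose motif is capitalised above, had 80.9, 80.9 and 85.0 percent in IRF7 arrays, against 78.9, 72.8 and 79.3 percent in base-vector arrays. Its log2 change was 0.10 (SE 0.046, adjusted p = 0.123), and a second probe had -0.12 (adjusted p = 0.173). Zfp526 lay near the threshold, at -0.25 (adjusted p = 0.0548), and Zfp114 had -0.05 (adjusted p = 0.641). The brightest probe of Zfp473 had 0.11 (SE 0.136, adjusted p = 0.524), but another probe of that gene fell by 0.69 (adjusted p = 6.63e-05).

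**Figure D3:**
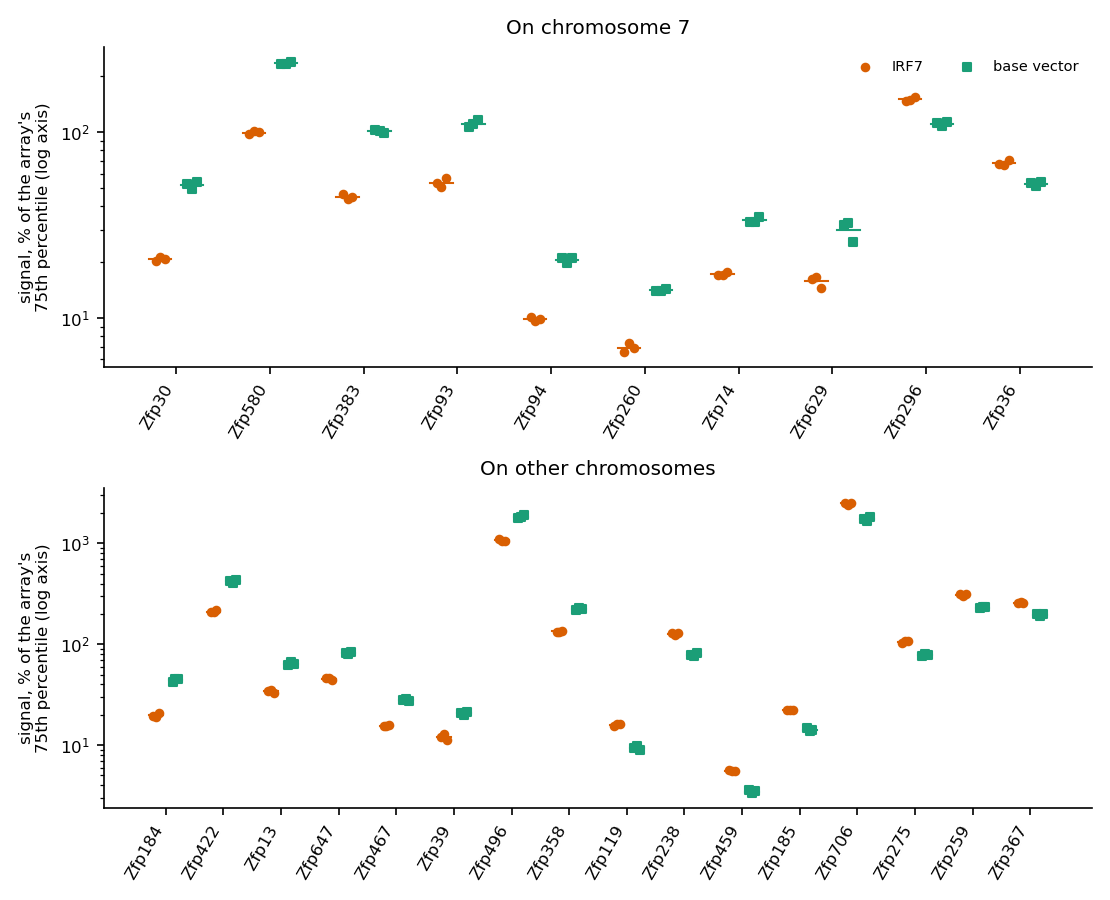
Signal in percent of the array's 75th percentile (log axis) is plotted for each array, with IRF7 (orange circles) left of base vector (green squares) and a line at each group's mean, for the genes with the largest falls and rises on chromosome 7 (upper panel) and elsewhere (lower panel). The genes were chosen among those past the threshold whose groups do not overlap. Zfp30, for example, had 20.3 to 21.5 percent in IRF7 arrays and 49.5 to 53.8 percent in base-vector arrays.

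Zfp genes on other chromosomes were divided. Of the 154, 64 fell (41.6%), 28 rose (18.2%) and 62 did not pass, with a median of -0.11 and a range of -1.15 to 0.77, against 26.0% lower and 33.8% higher among the 14396 genes not on chromosome 7. These calls are those of the brightest probe. For some genes that did not pass, another probe did, such as Zfp617 (-0.89 against -0.13) and Zfp148 (0.51 against 0.09). With arrays centred on the median the counts were 48 lower and 9 higher. Without scaling between arrays they turned to 21 lower and 40 higher and the median to 0.09. The median of all genes moved by 0.20 as well. Scaling shifts all genes of an array alike, so the distance of these genes from that median, -0.14, is the same under both settings by construction. Without scaling 33 of the chromosome 7 genes were lower and 3 higher. Chromosomes 2 and 11 had many lower genes outside the family too, with 43.9% and 45.9%, a choice of chromosomes made after the values were seen. Outside chromosomes 2, 7 and 11, 48 of 131 Zfp genes fell (36.6%) and 26 rose (19.8%), while 21.7% of the 11728 other genes fell and 37.3% rose.

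Groups of neighbouring Zfp genes differed in direction. On chromosome 11, 9 of 11 Zfp genes fell and none rose, where 45.9% of the 1317 other genes fell and 18.9% rose. Between 50 and 60 Mb 4 of its 5 fell (median -0.33), beside 70 of 122 other genes (median -0.27). On chromosome 6, 8 of 11 fell and 1 rose, where 27.1% of the 761 other genes fell and 29% rose. All 5 between 40 and 50 Mb fell (median -0.29), beside 22 of 59 other genes (median -0.14). In the stretch from 110 to 120 Mb of chromosome 6, 3 of 5 fell (median -0.53), beside 18 of 78 other genes (median 0.04). On chromosome 5, 4 of 6 between 140 and 150 Mb fell (median -0.38), beside 10 of 88 other genes (median 0.10). The cluster at 10 to 20 Mb of chromosome 17, which holds Zfp97, Zfp160 and Zfp51 to Zfp54, had none lower and 2 of 6 higher, with a median of 0.12 against 0.11 for its neighbours. Of those 53 neighbours 9 were lower and 20 higher. The 7 genes between 60 and 70 Mb of chromosome 13 split into 2 higher and 3 lower, within a range of -0.63 to 0.69, where 35.5% of the 62 other genes were higher and 30.6% lower. Of the 4 genes between 20 and 30 Mb of that chromosome 3 fell (median -0.32, range -1.15 to 0.02), on a stretch where 51.8% of the 56 other genes fell too (median -0.21). The other stretches with at least 4 members were mixed. At 70 to 80 Mb of chromosome 15, 3 of 6 were lower and 1 higher (median -0.06, range -0.85 to 0.18). There 26 of the 155 other genes were lower and 57 higher (median 0.08). At 160 to 170 Mb of chromosome 2, 1 of 5 was lower and 2 higher (median -0.08, range -0.35 to 0.36). In that stretch of chromosome 2, 44 of the 86 other genes were lower and 12 higher (median -0.14). On chromosome 17, 1 of 5 was lower and 2 higher at 20 to 30 Mb (median 0.01, range -0.91 to 0.28). Its 185 other genes had 55 lower and 68 higher (median 0.03). At 30 to 40 Mb 1 of 5 was lower and 1 higher (median -0.13, range -0.30 to 0.18). The 184 other genes there had 43 lower and 76 higher (median 0.11). At 80 to 90 Mb of chromosome 18, 2 of 4 fell and none rose (median -0.12, range -0.62 to -0.01). Of the 15 other genes of that stretch 2 fell and 5 rose (median 0.07).

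Zfp184, on chromosome 13, was the only Zfp gene outside chromosome 7 that fell at least 2-fold. It had 19.5, 19.1 and 20.9 percent in IRF7 arrays, against 42.1, 45.4 and 44.8 percent in base-vector arrays (log2 change -1.15, SE 0.051, adjusted p = 1.9e-05). Zfp422, a regulator of tooth development on chromosome 6, had 208, 208 and 216.5 percent in IRF7 arrays, against 420.4, 406 and 439 percent in base-vector arrays. Its change was -0.997, just short of 2-fold, and -1.02 at a second probe. Zfp496, now Zkscan17, encodes a repressor that binds the histone methyltransferase Nsd1. It had 1115, 1053 and 1067 percent in IRF7 arrays, against 1800.2, 1806 and 1909 percent in base-vector arrays (log2 change -0.77). Zfp467 promotes adipocyte over osteoblast fate in mouse marrow cells. It had 15.5, 15.4 and 15.7 percent in IRF7 arrays, against 27.9, 28.6 and 27.6 percent in base-vector arrays (log2 change -0.85). The remaining large falls, among genes chosen for no overlap between the groups, were Zfp13 (-0.91), Zfp647 (-0.85), Zfp39 (-0.78) and Zfp358 (-0.74).

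The largest rise was that of Zfp119, on chromosome 17 and now named Zfp119a, and its probes disagreed. The brightest had 15.6, 16.1 and 16.2 percent in IRF7 arrays, against 9.38, 9.77 and 8.95 percent in base-vector arrays (log2 change 0.77, SE 0.042), while another fell by 0.25 (adjusted p = 0.00757). With normexp background correction the change of the brightest Zfp119 probe was 0.47, below that of Zfp238 (0.65). Zfp238, now Zbtb18, encodes a BTB-domain repressor of muscle and brain development. It had 128, 124 and 129.7 percent in IRF7 arrays, against 77.7, 76.5 and 81.5 percent in base-vector arrays (log2 change 0.70, SE 0.037). Zfp185, on the X chromosome, encodes a LIM-domain protein of the actin cytoskeleton. It had 22.4, 22.2 and 22.4 percent in IRF7 arrays, against 14.6, 13.7 and 14.1 percent in base-vector arrays (log2 change 0.66).

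Zfp706, a small zinc finger protein that restrains self-renewal in mouse embryonic stem cells, had 2536, 2396 and 2542 percent in IRF7 arrays, against 1763, 1674 and 1838 percent in base-vector arrays (log2 change 0.50). Its second probe had 0.40. Zfp259, now Zpr1, encodes a protein that binds the epidermal growth factor receptor and translation elongation factor 1A. It had 317, 300.3 and 317 percent in IRF7 arrays, against 227, 232 and 234 percent in base-vector arrays (log2 change 0.43), and a second probe had 1.02. Zfp275 had 0.44, and Zfp367 had 0.40, with 0.27 and 0.00 at other probes that did not pass. Zfp459 was close to background, with 5.69, 5.54 and 5.53 percent in IRF7 arrays, against 3.59, 3.32 and 3.48 percent in base-vector arrays. Its change of 0.69 was 0.24 with normexp background correction.

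Zfp57 and Zfp217 are members with known roles that did not pass. Zfp57, which keeps imprinted regions methylated together with Trim28, had 5.91, 4.74 and 4.96 percent in IRF7 arrays, against 7.48, 5.597 and 4.35 percent in base-vector arrays (log2 change -0.13, SE 0.209). Its groups overlapped widely, and the highest value was that of base-vector array 1. Zfp217, whose human counterpart is amplified in breast cancer, had 127.5, 107 and 109.9 percent in IRF7 arrays, against 138, 125 and 116 percent in base-vector arrays (log2 change -0.13, SE 0.092).

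Other probes for the same genes gave a second reading of the same RNA. Of the 204 genes 99 had another detected probe, 155 probes in all, of which 117 changed in the same direction as the brightest. On chromosome 7, where most genes fell, 28 of 30 other probes of 25 genes did so, and their median change was -0.72. Elsewhere 89 of 125 other probes did so. The same shares over all genes were not counted. Where both probes passed, the directions were the same in 24 of 24 pairs on chromosome 7 and in 38 of 41 elsewhere. The 3 exceptions were Zfp119 above, Zfp384 and Zfp386. Zfp384, a nuclear matrix factor active in bone cells, had 0.14 at its brightest probe and -0.27 at another. Zfp386 had -0.14 at its brightest probe and 0.24 and -0.47 at others that passed.

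**Figure D4:**
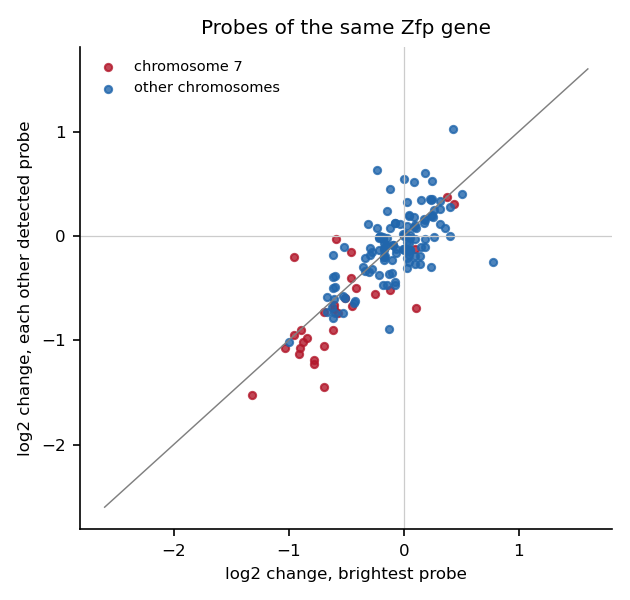
Each point is another detected probe of a Zfp gene (155 probes of 99 genes), with the log2 change, IRF7 minus base vector, of the gene's brightest probe on the horizontal axis and its own on the vertical axis; the diagonal marks equal change. Red points are genes of chromosome 7, of which 28 of 30 have the sign of the brightest probe; the lower right red point with a brightest-probe change of 0.11 is Zfp473.

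Because zinc finger genes share sequence, the probes themselves were compared. The letters GGAGANAAA, codons from the middle of the conserved finger linker, were searched on the probe strand in any reading frame. They occurred in 7 of the 204 probes used (3.43%) and in 70 of the 15340 probes of other genes (0.456%), and in none of the 50 probes of chromosome 7. Of all pairs of the 204 probes, 17 shared a run of at least 12 bases, none shared 20, and the longest run of 19 was between Zfp72 and Zfp51. The probes of the 2 pairs with the longest runs are shown, from the files, with those letters in capitals.
Zfp72: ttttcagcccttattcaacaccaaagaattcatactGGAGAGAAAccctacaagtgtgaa
Zfp51: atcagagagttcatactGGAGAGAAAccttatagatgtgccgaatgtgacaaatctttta
Zfp2: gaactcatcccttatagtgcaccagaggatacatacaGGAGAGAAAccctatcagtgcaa
Zfp248: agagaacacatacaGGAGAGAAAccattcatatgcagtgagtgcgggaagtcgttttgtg
On mm7 they lie at chr13:71304043-71304102 (minus strand), chr17:19644483-19644542 (plus), chr11:50856656-50856715 (minus) and chr6:118454592-118454651 (minus). Zfp72 had a change of -0.08 and Zfp51 of 0.10, neither past the threshold, while Zfp2 fell by 0.33 (adjusted p = 0.019) and Zfp248 had -0.12 without passing. Of the 7 genes with a match in the probe, 1 fell and 1 rose. Whether such probes bind RNA of related genes was not tested.

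RefSeq's promoter table (GRCm38.p6, 250 bases before to 50 after the start site) held 46 of the 50 genes of chromosome 7 and 119 of the other 154. The Zfp143 motif, searched as ACTACANTT on both strands, was present for 15 of the 46 (32.6%) and 11 of the 119 (9.24%). It was present for 3.31% of 786 other tested genes of chromosome 7, 2.62% of 9013 other tested genes elsewhere and 1.81% of all 27025 genes in the table. By promoter, it was in 27.8% of 54 for the chromosome 7 genes, 6.88% of 160 for the other Zfp genes and 1.57% of all 32851. All 15 chromosome 7 genes with the motif fell, with a median of -0.73 and a range of -1.17 to -0.29. Of the 31 without it 26 fell and 2 rose, with a median of -0.60, so genes without a match fell as well. Elsewhere, 6 of 11 genes with the motif fell and 1 rose (median -0.23), and 41 of 108 without it fell and 24 rose (median -0.08). These are descriptions with no test: the motifs were chosen with the expression results known, and this one was shortened after matches to a longer form in these promoters had been seen. Duplicated genes share ancestry, so their promoters are not independent of each other.

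**Figure D5:**
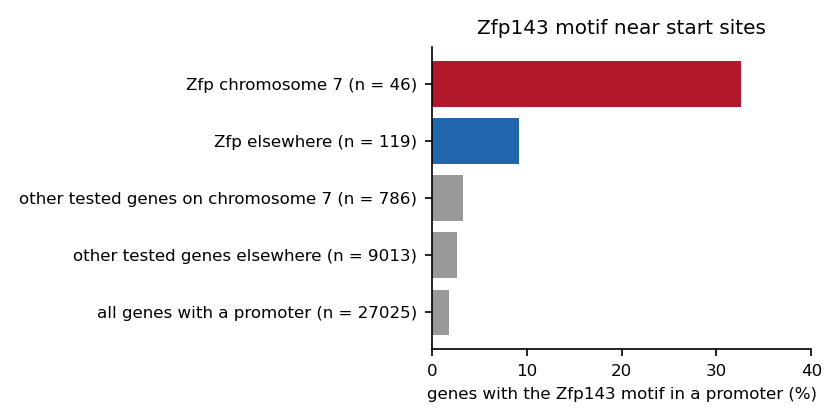
Bars give the percentage of genes with at least 1 match to ACTACANTT, on either strand, in a RefSeq promoter of 300 bases. From the top they stand for Zfp genes of chromosome 7 (32.6%), Zfp genes elsewhere (9.24%), other tested genes of chromosome 7 (3.31%), other tested genes elsewhere (2.62%) and all genes in the table (1.81%).

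Of 3 further motifs searched on both strands, GAAANNGAA, which interferon regulatory factors bind, was found in 2 of the 54 promoters of chromosome 7 Zfp genes (3.70%) and in 11.2% of the 160 promoters of the others. It was found in 6.91% of promoters of tested genes and 8.56% of all promoters. The ETS motif CCGGAAGT was present in 16.7% of chromosome 7 Zfp promoters, 11.2% of the other Zfp promoters, 7.79% of those of tested genes and 3.89% of all. The NRF1 motif GCGCATGCG was present in 7.41%, 3.75%, 3.39% and 1.75% of the same sets. Matches to different motifs were counted apart, also where they overlapped. A match is only a run of letters, and a window without one says nothing of the factor.

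The proteins that KRAB zinc fingers recruit did not share a direction. Of 42 genes listed for the co-repressor complex and heterochromatin 40 were tested; 13 rose (32.5%) and 6 fell (15.0%), with a median of 0.06, against 31.8% higher and 29.0% lower among all genes tested. Trim28, the scaffold that binds the KRAB domain, itself lies on chromosome 7. It had 1075, 1121 and 1172 percent in IRF7 arrays, against 1764, 1710 and 1751 percent in base-vector arrays (log2 change -0.63, SE 0.040, adjusted p = 6.85e-05), with no overlap. Chd3, a nucleosome remodeller of the NuRD complex that Trim28 binds, fell by 0.82 and Gatad2a, another NuRD subunit, had 0.33. Daxx, a chaperone of histone H3.3, had 876, 859 and 873 percent in IRF7 arrays, against 489, 489 and 503 percent in base-vector arrays (log2 change 0.82, SE 0.028). With arrays centred on the median 3 of the 40 rose and 3 fell, and without scaling 21 rose and 2 fell.

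Zinc finger genes of other names moved in shares near those of all genes. Among 69 such genes in the test, 25 rose (36.2%) and 21 fell (30.4%), with a median of 0.00, against 31.8% higher and 29.0% lower among all genes tested. Without scaling 29 rose and 7 fell. All 3 on chromosome 7, where 66.6% of all genes were lower, fell: Zscan2, a C2H2 gene, by 1.27, the Krüppel-like factor Klf13 by 0.58 and the AN1-type Zfand6 by 0.62. Zscan2 was dim, with 4.42, 3.72 and 3.69 percent in IRF7 arrays, against 9.10, 9.94 and 9.40 percent in base-vector arrays. With normexp background correction its change was -0.78. Among the 26 Zbtb genes 7 rose and 8 fell. Of 11 Klf genes 7 rose and 3 fell. Klf4, a factor of epithelial differentiation and pluripotency, had 327, 318 and 323 percent in IRF7 arrays, against 131, 126 and 135 percent in base-vector arrays (log2 change 1.30). All 3 Egr genes rose, and Egr1, an immediate early gene, had 1.501. Sp100, an interferon-induced nuclear body protein that the name rule took in although it is no relative of the Sp factors, had 2.07, and the arsenite-inducible Zfand2a had 1.35.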

How the data were processed

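Total RNA of 6 cultures was labelled with Cy3 from 0.2 ug, per the labels' protocols, and each was hybridised to 1 single-colour array. The submitters' processing notes name Agilent Feature Extraction 9.5.3.1 for reading the scans. Per the file headers, the deposited intensity of each spot is a linear processed signal, background-subtracted and detrended within the array, beside a mean signal and a local background. The authors' deposited value table equals that processed signal, with column medians of 56.5 to 79.0, so its intensities are linear and neither centred nor scaled; it served as the alternative without scaling. Each array held 43379 probe spots; 1639 control spots and 111 to 121 outlier spots per array were left out. Processed signals had a 75th percentile between 1148 and 1458.

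Groups and replicate numbers come from the sample titles. Log2 of the processed signal minus the array's 75th percentile was tested with limma 3.58.1 (R 4.3.3; lmFit and eBayes, IRF7 against base vector, no block) over 15544 gene names, with Benjamini-Hochberg adjustment at 0.05 and 4 residual degrees of freedom. Adjusted p-values of other probes of a gene come from a separate fit of the same form, adjusted over all detected probes with a gene name. Counts, medians and plots were made in Python 3.11.15 (pandas 2.3.3, matplotlib 3.10.9). The number of arrays limits the precision. Same-numbered arrays of the groups had correlations of deviations of 0.0382, 0.175 and 0.23, and the labels do not say what a number marks, so no pairing was used.

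Probe coordinates are those of the files (mm7). Names follow the files; RefSeq's table (GRCm38.p6) gave current names, promoters and no probe coordinates. The Zfp genes, the co-repressor list, the families, the motifs and the tests were chosen with earlier results of these data known. Genes were named by rule: the 8 largest falls and up to 4 rises on chromosome 7 without overlap of groups, 8 and 8 elsewhere, genes whose passing probes oppose, members of known function where detected, members at the edge of detection, and the 4 genes of smallest p in each list. Zfp60, Zfp114, Zfp473, Zfp526, genes of single stretches and the genes of the printed probes were named after their values were seen. The 50 genes of chromosome 7 were compared with the rest by counts and medians. The alternatives were other background correction (normexp, offset 50), scaling, filters, probe rules, slide and replicate blocks, updated names and each array left out. The fit was also run on simulated data with few changed genes, independent errors and no slide effect. That run cannot vouch for the calls on these arrays. A listed leukocyte marker is not reported here.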

Additional observations from a re-analysis of the deposited data

How the results depend on the processing

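The count of chromosome 7 Zfp genes that fell stayed within 1.5 times of 44 under every alternative tried, from 33 of 50 without scaling to 63 of 70 with updated gene names, and was 42 to 44 with each array left out. The difference in median log2 change between chromosome 7 and other Zfp genes, -0.53, was -0.46 with normexp, -0.48 with no filter on dim probes, -0.56 with the mean of all detected probes, -0.57 with updated names and -0.51 to -0.57 with each array left out. The 92 other Zfp genes past the threshold became 57 with median centring and 61 without scaling, the 19 co-repressor genes became 6 and the 46 genes of other families became 28 with median centring. All genes past the threshold numbered 9455 of 15544, against 6251 of the same genes with median centring. With no filter, which adds undetected genes, they numbered 14633 of 27962. Of the calls that passed, 52.3% were higher, against 79.1% without scaling and 32.7% with no filter. With the replicate number as a block 45 chromosome 7 genes fell, 65 others fell and 28 rose, and 9815 genes passed in all; every array correlated best with its own number, a hint from the data and not from the design. Of 639 values of 34 named genes under the alternatives 10 no longer passed, 3 passed anew and 17 changed sign. Of the sign changes 15 belong to 5 genes that did not pass to begin with (Zfp57, Zfp143, Zfp179, Zfp217 and Zfp458), and the other 2 are Zfp384, at -0.11 with the mean of all probes, and Zfp386, at 0.0557 without scaling. For the rest the cause was not tested. Genes near background, such as Zfp459 and Zfp260, are limited by their signal, and with 1 base-vector array on the slide of the IRF7 arrays slide and group are only partly separate.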
